A study of Homo sapiens with 4 samples.

Results

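The metalloproteases of the ADAM, ADAMTS and MMP families, and the TIMP proteins that inhibit them, were followed in HCT116 cells with and without a knockdown of ARID1A. They were selected by gene symbol, a rule that uses no expression value, and made up 69 of the 60766 features in the expression tables. Of these, 22 were ADAM genes, 19 were ADAMTS genes, 24 were MMP genes and 4 were TIMP genes. Relatives with other symbol patterns, such as ADAMDEC1, ADAM1A and the ADAMTSL genes, were not members. HCT116 is an established human colon carcinoma line, grown here in RPMI1640 with serum. In the first group the cells carried a short hairpin RNA (shRNA) against ARID1A, a DNA-binding protein best known from SWI/SNF, a chromatin remodeller, and the second group was labelled control. Each group had 2 libraries of total RNA, and the labels give neither the hairpin sequence nor the construct in the control cells. The study asked how loss of ARID1A relates to immune functions.

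The active proteases of these families use a zinc ion in their active site and are made with a propeptide that keeps them inactive; several ADAM proteins have lost the protease activity. ADAM proteins sit in the cell membrane and cut the outer parts of other membrane proteins free, a step called shedding that releases EGF-like growth factors and starts Notch signalling. ADAMTS proteins are secreted and cut matrix proteins such as procollagens, proteoglycans and von Willebrand factor. MMPs cut collagens, laminins and other matrix proteins, and the membrane-type MMPs do so at the cell surface. TIMPs bind the active site of MMPs, and some, TIMP3 among them, also bind that of ADAM or ADAMTS proteases. In colon tumours many MMPs come from stromal fibroblasts and leukocytes, while MMP7 is made by the tumour cells themselves.

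Expression was read as FPKM (fragments scaled by transcript length and library total), so levels are per transcript length. The steps between low values gave normalizing totals of 74750000 to 75000000 fragments in the knockdown libraries and 68250000 to 71000000 in the controls, at which 1 FPKM over 2 kb rests on about 117 to 129 fragments. ARID1A was at 7.05 and 6.13 FPKM in the knockdown libraries and at 11.1 and 11.4 FPKM in the controls, a log2 change of -0.69 (SE 0.077, limma adjusted p = 0.00438). Mitochondrial transcripts took 5.65% to 6.04% of the summed FPKM in the knockdown libraries and 4.29% to 4.35% in the controls. Of 8 colon carcinoma epithelium markers, 6 had a mean of at least 1 FPKM, with sums of 4160 to 4313 FPKM in the knockdown libraries and 3097 to 3209 in the controls; CDX1 was listed at 0 in all 4 libraries. KRT8 and KRT19 rose and EPCAM fell in the knockdown (limma adjusted p = 7.68e-04, 0.00264 and 3.63e-04). Fibroblast markers summed to 6.15 to 6.43 FPKM in the knockdown libraries and 3.78 to 5.02 in the controls, nearly all of it COL1A1, while DCN and LUM did not exceed 0.0121 FPKM in any library. Leukocyte markers summed to 3.32 to 3.92 FPKM in the knockdown libraries and 6.23 to 7.81 in the controls, mostly CD68, with PTPRC at no more than 0.00592 FPKM and CD3E and TYROBP listed at 0. The 6 endothelial markers summed to less than 0.4 FPKM in every library. The part of CD68 and COL1A1 in the results below was not tested.

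Of the 69 genes, 22 had a mean of at least 1 FPKM over the 4 libraries and were tested. Among those 22, 10 fell and 1 rose in the knockdown, and 11 did not pass (limma on log2(FPKM + 1), Benjamini-Hochberg adjusted p at or under 0.05). That is 50% of the tested members, where 37.1% of all 13605 tested features were called, 18.9% lower and 18.2% higher in the knockdown. The members' median log2 change was -0.15, beside -0.0030 over all tested features. Groups did not overlap for 19 of the 22, 4 higher and 15 lower in the knockdown, where over all tested features 72.3% did not overlap, 35.8% higher and 36.5% lower. By family, 3 of 7 tested ADAM genes fell and 1 rose, 3 of 6 ADAMTS genes fell, 3 of 6 MMP genes fell and 1 of 3 TIMP genes fell. The labels do not say that the 2 libraries of a group came from separate cultures, so p-values measure the spread between these libraries, which may be technical. The number of members called was 7 without knockdown replicate 1, 8 without knockdown replicate 2, 8 without control replicate 1 and 6 without control replicate 2. In such fits the lone library of a group is assumed to vary like the pair in the other group, which alone gives the spread.

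**Figure D1:**
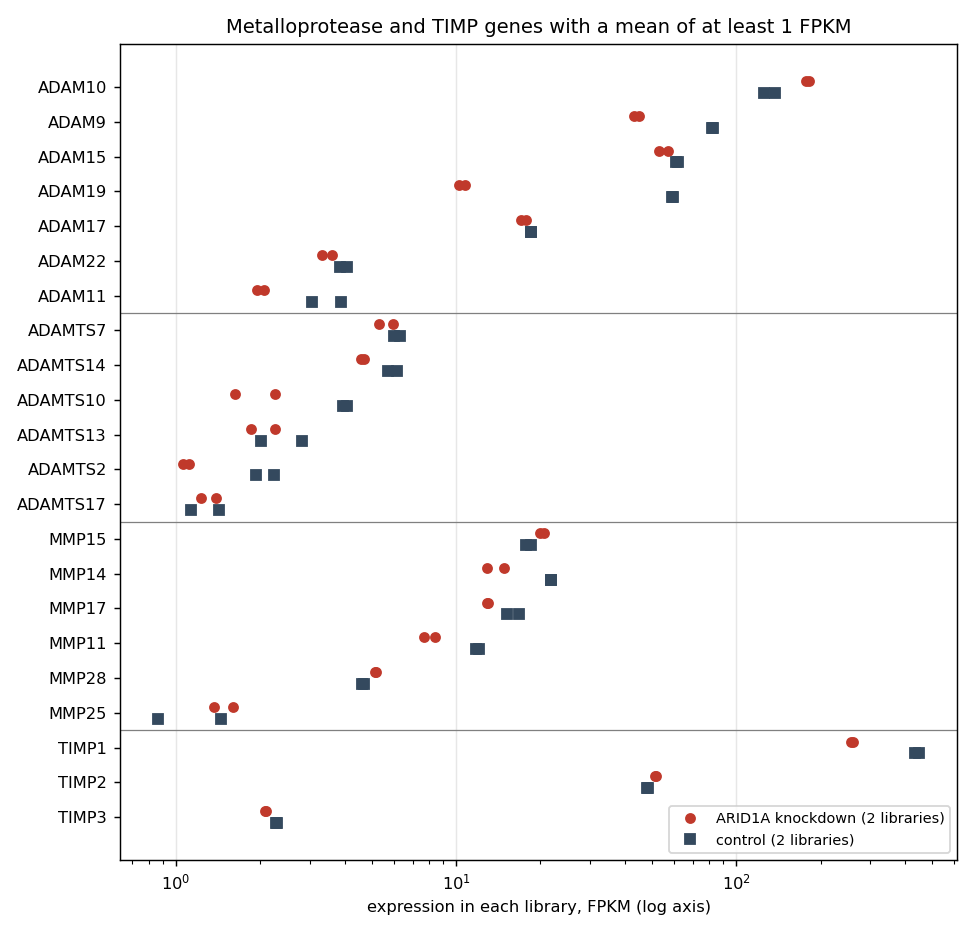
Expression of the 22 tested genes in each library, in FPKM on a log axis, with the 2 ARID1A knockdown libraries as circles and the 2 control libraries as squares, grouped by family. ADAM19 stands furthest apart, at 10.3 and 10.7 FPKM in the knockdown and 59.6 and 58.8 FPKM in the controls; ADAM10 lies higher in the knockdown.

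ADAM19, also called meltrin beta, sheds neuregulin and other ligands and in mice is needed for heart development. It was at 10.3 and 10.7 FPKM in the knockdown libraries, against 59.6 and 58.8 FPKM in the controls. Both knockdown libraries lay far below both controls, and the replicates of each group differed by less than 1 FPKM. Its mean was 10.5 ± 0.328 FPKM in the knockdown and 59.2 ± 0.603 FPKM in the controls (SD, n = 2 each), 5.63-fold lower. The log2 change was -2.39 (SE 0.044, limma adjusted p = 1.67e-04), which ranked 13 among the falls of all 13605 tested features. By exact permutation of the libraries, two-sided, p was 0.333, and 2 against 2 allow no smaller value. Under the 15 alternative settings the change lay between -2.48 and -2.36 and stayed past the threshold, with adjusted p-values of 6.97e-05 to 0.00715. ADAM19 lies on the minus strand of chromosome 5 (157395534 to 157575775, GRCh38) and overlaps the last 62 bases of CYFIP2, on the plus strand. CYFIP2 was at 20.2 and 19.7 FPKM in the knockdown libraries and 14.5 and 14.5 FPKM in the controls, the opposite direction. In bulk RNA, fewer cells that express a gene and less of its RNA per cell cannot be told apart.

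The start regions of 5 genes are shown. Of these, ADAM19, TIMP1 and MMP14 were lower and ADAM10 was higher in the knockdown. MMP7 was added because its start has the features known from inducible MMP genes. ADAM9 and ADAMTS10, which fell by more than TIMP1 and MMP14 (log2 changes of -0.89 and -0.78), are not shown. Each region shown runs 5′ to 3′ from 250 bases before to 50 bases after the transcription start, as RefSeq gives it on GRCh38.p14. Capitals mark 3 motifs searched on both strands, the GC box GGGCGG, the AP-1 pattern TGANTCA, with any base at N, and the TATA box TATAAA. None of the marked matches overlap. Near forms were not searched and are not marked, such as the TGAGTAA in the TIMP1 region, which differs from the AP-1 pattern. The regions are chr5:157575726-157576025 (minus strand) for ADAM19, chrX:47582186-47582485 (plus) for TIMP1, chr14:22836335-22836634 (plus) for MMP14, chr15:58749658-58749957 (minus) for ADAM10 and chr11:102530698-102530997 (minus) for MMP7.
ADAM19: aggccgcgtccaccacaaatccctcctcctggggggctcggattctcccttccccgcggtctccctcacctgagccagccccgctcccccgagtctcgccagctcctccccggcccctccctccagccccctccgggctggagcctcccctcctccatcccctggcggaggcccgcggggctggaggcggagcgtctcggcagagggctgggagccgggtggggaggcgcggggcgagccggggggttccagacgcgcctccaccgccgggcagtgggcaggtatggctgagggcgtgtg
TIMP1: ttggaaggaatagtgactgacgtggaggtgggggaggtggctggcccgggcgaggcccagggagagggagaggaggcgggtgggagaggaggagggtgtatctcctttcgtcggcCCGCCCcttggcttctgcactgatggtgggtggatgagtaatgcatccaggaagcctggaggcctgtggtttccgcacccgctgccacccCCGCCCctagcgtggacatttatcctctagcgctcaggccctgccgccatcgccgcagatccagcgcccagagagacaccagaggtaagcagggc
MMP14: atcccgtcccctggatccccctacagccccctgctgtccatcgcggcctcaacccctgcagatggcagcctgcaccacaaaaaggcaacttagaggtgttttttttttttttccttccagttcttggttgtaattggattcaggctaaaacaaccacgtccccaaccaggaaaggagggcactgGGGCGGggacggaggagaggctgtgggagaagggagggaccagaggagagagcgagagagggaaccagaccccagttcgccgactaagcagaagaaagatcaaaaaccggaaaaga
ADAM10: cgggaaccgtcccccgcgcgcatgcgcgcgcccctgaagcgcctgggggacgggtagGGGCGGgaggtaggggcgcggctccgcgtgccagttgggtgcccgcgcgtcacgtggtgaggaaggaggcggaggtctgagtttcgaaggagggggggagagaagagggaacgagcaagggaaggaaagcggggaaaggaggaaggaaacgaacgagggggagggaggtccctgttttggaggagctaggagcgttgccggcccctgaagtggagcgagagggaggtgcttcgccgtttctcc
MMP7: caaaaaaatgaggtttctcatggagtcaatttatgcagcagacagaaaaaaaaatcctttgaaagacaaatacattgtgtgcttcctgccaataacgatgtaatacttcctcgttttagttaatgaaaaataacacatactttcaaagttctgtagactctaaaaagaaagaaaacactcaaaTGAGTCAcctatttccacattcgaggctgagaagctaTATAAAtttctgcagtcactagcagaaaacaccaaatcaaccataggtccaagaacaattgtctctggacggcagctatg
The ADAM19 region held none of the 3 motifs and was 75.7% G and C, with 26 CG pairs. TIMP1 had GC boxes at positions -135 and -45 on the reverse strand, MMP14 at -66 and ADAM10 at -193, counted from the start with -1 as the base before it. MMP7 was 35.7% G and C and had an AP-1 site at -67 and a TATA box at -30. Of the 69 genes, 39 matched a region in that table by symbol. A GC box was found in 26 of the 39 (66.7%), an AP-1 site in 4 (10.3%) and a TATA box in 8 (20.5%). Over all 35116 regions of the table the shares were 44.95%, 7.71% and 11.5%. Those shares count every region, also where a gene has several, and are not limited to expressed genes. Members were counted by gene, with no more than 1 region each, so the shares are not fully alike. A GC box was present in 15 of the 16 matched genes with a mean of at least 1 FPKM and in 11 of the 23 below it, and an AP-1 site in 0 of those 16 and 4 of those 23. A match describes letters in this window and is not a measured binding site, and sites in other forms are not in these counts.

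Among the shedding enzymes, ADAM10 was the highest ADAM gene and the only one of the 22 tested genes that rose. ADAM10, which starts Notch cleavage and sheds E-cadherin, was at 182 and 177 FPKM in the knockdown libraries and at 137 and 126 FPKM in the controls. Both knockdown libraries were above both controls, 1.37-fold by the means (180 ± 3.32 and 131 ± 8.04 FPKM; SD, n = 2 each), a log2 change of 0.45 (SE 0.052, limma adjusted p = 0.00483). ADAM17, which sheds TNF and several EGF-like ligands, was at 17.8 and 17.1 FPKM in the knockdown libraries and at 18.6 and 18.5 FPKM in the controls. It did not pass (log2 change -0.08, 95% interval -0.20 to 0.036, limma adjusted p = 0.218). ADAM17 shares 8058 bases with IAH1 on the other strand, which was at 16.9 and 16.8 FPKM in the knockdown libraries and 22.1 and 21.5 FPKM in the controls. ADAM10 shares 2868 bases with AC018904.1 on the other strand, which was at no more than 2.38 FPKM in any library. The ratio of ADAM10 to ADAM17 was 10.2 and 10.4 in the knockdown libraries and 7.38 and 6.81 in the controls.

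ADAM9, a widely expressed sheddase, had the largest fall among the ADAM genes after ADAM19. It was at 44.9 and 43.3 FPKM in the knockdown libraries and at 82.6 and 82.1 FPKM in the controls, with no overlap. The means were 44.1 ± 1.11 and 82.3 ± 0.379 FPKM (SD, n = 2 each), 1.87-fold lower in the knockdown, with a log2 change of -0.89 (SE 0.038, limma adjusted p = 4.70e-04). ADAM9 lies on chromosome 8 (38996869 to 39105261), next to ADAM32 (39106990 to 39284917), a sperm-associated ADAM. ADAM32 was below the filter, at 0.167 and 0.133 FPKM in the knockdown libraries and 0.252 and 0.382 FPKM in the controls. ADAM15, which can bind integrins, was at 52.9 and 57.1 FPKM in the knockdown libraries and 61.9 and 60.7 FPKM in the controls. The groups did not overlap, but the change of -0.15 (95% interval -0.28 to -0.024) missed the threshold (limma adjusted p = 0.0685) and passed it without knockdown replicate 2 (0.0423).

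ADAM11 and ADAM22 lack a working protease site and act as surface receptors, best known from neurons, where ADAM22 binds LGI1. ADAM11 was at 2.06 and 1.94 FPKM in the knockdown libraries and at 3.07 and 3.87 FPKM in the controls. It fell by 0.57 on the log2 scale (SE 0.12, limma adjusted p = 0.0213). That call was lost without knockdown replicate 1 (adjusted p = 0.0688), knockdown replicate 2 (0.0752) or control replicate 2 (0.0796). ADAM22 was at 3.61 and 3.33 FPKM in the knockdown libraries and 4.07 and 3.87 FPKM in the controls and did not pass (limma adjusted p = 0.185). Summed over all ADAM genes, the level was 316 and 313 FPKM in the knockdown libraries and 368 and 355 FPKM in the controls. Without ADAM19 the sums were 305 and 302 FPKM in the knockdown libraries and 309 and 296 FPKM in the controls, and so overlapped. ADAM19 made up 3.26% and 3.43% of the family's sum in the knockdown libraries and 16.2% and 16.6% in the controls.

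**Figure D2:**
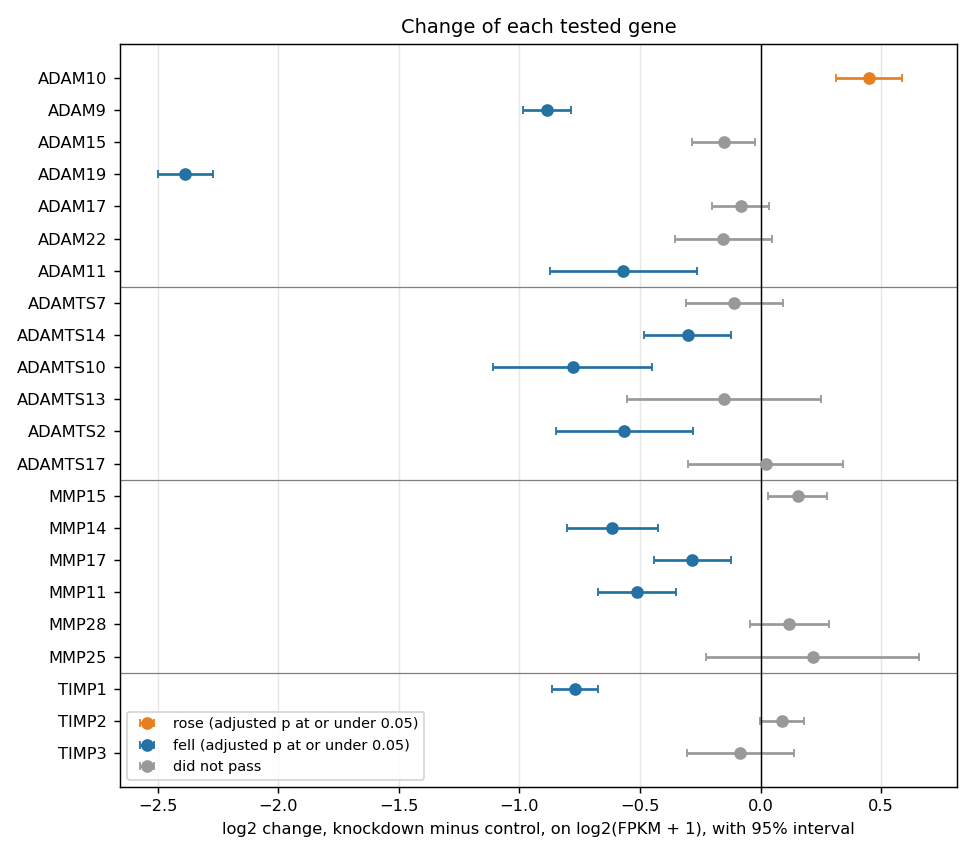
Log2 change of each tested gene, knockdown minus control, on the log2(FPKM + 1) scale with limma's 95% interval, coloured by whether it rose, fell or did not pass. ADAM10 alone rose, by 0.45; ADAM19 fell by 2.39 and ADAM9 by 0.89.

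The ADAMTS genes were low, with no member above a mean of 10 FPKM. ADAMTS10, which associates with fibrillin microfibrils, was at 1.63 and 2.25 FPKM in the knockdown libraries and at 3.95 and 4.09 FPKM in the controls. Both knockdown libraries were below both controls, 2.07-fold by the means, with a log2 change of -0.78 (SE 0.13, limma adjusted p = 0.0114). The call was lost without control replicate 1 (adjusted p = 0.0611) or control replicate 2 (0.0669). ADAMTS2 and ADAMTS14 both remove the N-terminal propeptide of fibrillar procollagens. ADAMTS2 was at 1.06 and 1.11 FPKM in the knockdown libraries and at 2.24 and 1.93 FPKM in the controls, a log2 change of -0.56 (SE 0.11, limma adjusted p = 0.0179). ADAMTS14 was at 4.68 and 4.57 FPKM in the knockdown libraries and at 6.18 and 5.70 FPKM in the controls, a log2 change of -0.30 (SE 0.069, limma adjusted p = 0.0286). Neither group pair overlapped. Without knockdown replicate 1 or 2, or control replicate 1 or 2, the adjusted p was 0.0618, 0.0528, 0.0874 and 0.0574 for ADAMTS2 and 0.0875, 0.102, 0.119 and 0.0690 for ADAMTS14. The changes themselves lay between -0.64 and -0.49 for ADAMTS2 and between -0.35 and -0.25 for ADAMTS14 in those fits.

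The other 3 tested ADAMTS genes did not pass. ADAMTS7, which cuts cartilage oligomeric matrix protein, was at 5.30 and 5.98 FPKM in the knockdown libraries and 6.29 and 6.02 FPKM in the controls (limma adjusted p = 0.320). It shares 978 bases with MORF4L1 on the other strand, a gene at 373 to 414 FPKM. ADAMTS13, which cuts von Willebrand factor, was at 1.85 and 2.27 FPKM in the knockdown libraries and 2.00 and 2.83 FPKM in the controls. It shares 3739 bases with REXO4 on the other strand, a gene at 17.6 to 20.7 FPKM. Without a stated strand setting, reads in the shared stretch cannot be told apart. ADAMTS17 was at 1.23 and 1.39 FPKM in the knockdown libraries and 1.13 and 1.43 FPKM in the controls. The groups overlapped for ADAMTS13 and ADAMTS17. The proteases best known for cutting aggrecan and versican were nearly silent: ADAMTS5 was listed at 0 in all 4 libraries, and ADAMTS1, ADAMTS4, ADAMTS8, ADAMTS9 and ADAMTS20 did not exceed 0.0319 FPKM in any library. ADAMTS15, of the same group, was at 0.435 and 0.345 FPKM in the knockdown libraries and 0.244 and 0.326 FPKM in the controls.

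Among the MMPs, the transcripts present were mainly those of membrane-type enzymes, which summed to 50.2 and 47.2 FPKM in the knockdown libraries and 56.3 and 57.9 FPKM in the controls. The remaining MMP genes together gave 15.6 and 16.7 FPKM in the knockdown libraries and 18.5 and 18.3 FPKM in the controls. MMP14, the main activator of MMP2 and a pericellular collagenase, was at 14.8 and 12.9 FPKM in the knockdown libraries and at 21.7 and 21.7 FPKM in the controls. Both knockdown libraries were below both controls, 1.57-fold by the means, with a log2 change of -0.61 (SE 0.073, limma adjusted p = 0.00506). MMP17, a membrane-type enzyme held by a lipid anchor, was at 13.0 and 12.9 FPKM in the knockdown libraries and at 15.2 and 16.8 FPKM in the controls, a log2 change of -0.28 (SE 0.061, limma adjusted p = 0.0243). The call of MMP17 was lost without knockdown replicate 1 (adjusted p = 0.0817), knockdown replicate 2 (0.0844) or control replicate 2 (0.0956).

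MMP15, another membrane-type enzyme, was at 20.6 and 19.99 FPKM in the knockdown libraries and at 17.8 and 18.5 FPKM in the controls. The groups did not overlap, but the change of 0.15 (95% interval 0.031 to 0.28) missed the threshold (limma adjusted p = 0.0595). The ratio of MMP15 to MMP14 was 1.39 and 1.54 in the knockdown libraries and 0.818 and 0.852 in the controls, so MMP14 was the higher of the pair in both control libraries and MMP15 in both knockdown libraries. MMP11, a stromelysin that furin activates inside the cell, was at 7.70 and 8.40 FPKM in the knockdown libraries and at 12.0 and 11.8 FPKM in the controls. Its first 218 bases overlap CHCHD10 on the other strand. MMP11 was 1.48-fold lower, with a log2 change of -0.51 (SE 0.062, limma adjusted p = 0.00528). MMP28, or epilysin, and MMP25, a second lipid-anchored enzyme, did not pass (limma adjusted p = 0.199 and 0.362). MMP28 was at 5.17 and 5.12 FPKM in the knockdown libraries and 4.69 and 4.63 FPKM in the controls, and MMP25 was at 1.60 and 1.37 against 1.45 and 0.862 FPKM. MMP28 lies within TAF15 on the opposite strand and MMP25 overlaps MMP25-AS1, and without a stated strand setting such reads cannot be told apart.

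Of the inhibitors, TIMP1 was the most abundant of all 69 genes and fell. It was at 256 and 262 FPKM in the knockdown libraries, against 450 and 435 FPKM in the controls. Both knockdown libraries lay below both controls, with means of 259 ± 4.23 and 442 ± 11.2 FPKM (SD, n = 2 each), 1.71-fold lower. The log2 change was -0.77 (SE 0.037, limma adjusted p = 5.83e-04). TIMP1 lies inside SYN1 on the X chromosome (47582408 to 47586789), and SYN1 itself was at no more than 0.556 FPKM in any library.

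TIMP2, which inhibits MMPs and also docks MMP2 to MMP14 for its activation, was at 51.6 and 51.2 FPKM in the knockdown libraries and at 48.0 and 48.4 FPKM in the controls. It did not pass (log2 change 0.09, 95% interval -0.0020 to 0.18, limma adjusted p = 0.109). The 367-base feature AC022966.2 lies inside TIMP2 and was lower in the knockdown libraries. TIMP3, which is held in the matrix, was at 2.09 and 2.10 FPKM in the knockdown libraries and 2.29 and 2.27 FPKM in the controls and did not pass (limma adjusted p = 0.481). TIMP4 was at 0 and 0.0148 FPKM in the knockdown libraries and 0.0161 and 0.0306 FPKM in the controls. The 4 TIMP genes summed to 310 and 315 FPKM in the knockdown libraries and 501 and 485 FPKM in the controls. Without TIMP1 the sums were 53.6 and 53.3 FPKM in the knockdown libraries and 50.3 and 50.7 FPKM in the controls. The summed TIMP level was 4.71 and 4.93 times the summed MMP level in the knockdown libraries and 6.70 and 6.36 times in the controls. Against MMP14 alone, TIMP1 stood at ratios of 17.3 and 20.2 in the knockdown libraries and 20.7 and 19.98 in the controls, which overlap. TIMP2 stood at 3.47 and 3.95 in the knockdown libraries and 2.21 and 2.23 in the controls, which do not.

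**Figure D3:**
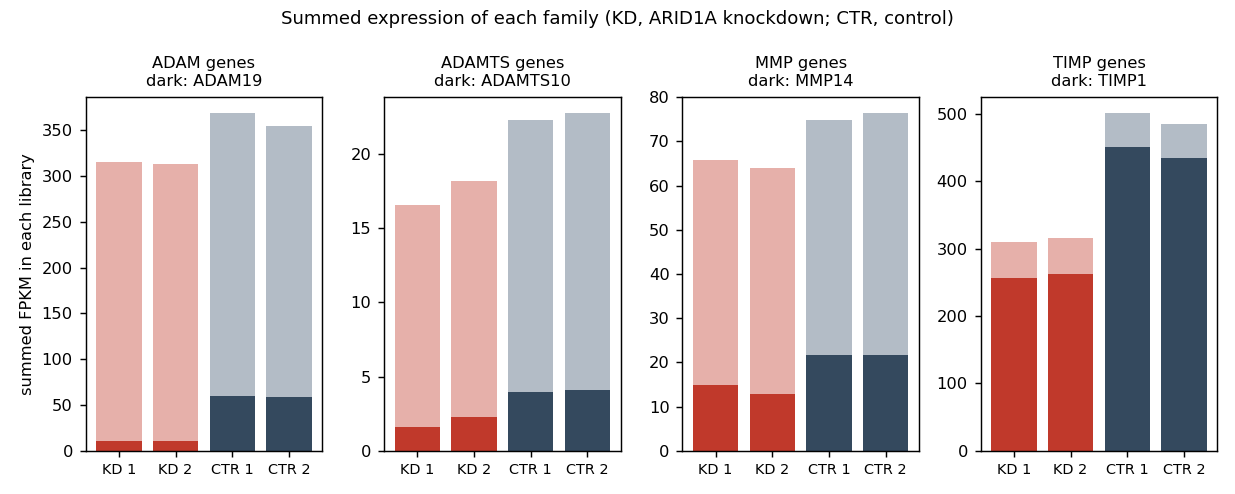
Summed FPKM of each family in each library, knockdown (KD) left of control (CTR), with 1 gene of the family as the dark part of each bar and the rest as the pale part. TIMP1 makes up most of the TIMP sum, and the pale part of the ADAM bars is about the same height in all 4 libraries, 296 to 309 FPKM.

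Below the filter, 14 genes had a mean of 0.1 to 1 FPKM. Their groups did not overlap for 10 of them, 7 higher and 3 lower in the knockdown (71.4%, where 46.7% of all features in that range did not overlap). Shares by direction were not computed over all features in that range. MMP20 and ADAM28 reached it only through the knockdown libraries and ADAMTS16 only through the controls. All of these are among the 10, so neither their directions nor their part in the 71.4% carry weight. The 46.7% was counted over the same range of means and can hold such features too. MMP7, or matrilysin, was at 0.879 and 1.07 FPKM in the knockdown libraries and 0.505 and 0.749 FPKM in the controls. It did not pass with the filter set to 0.1 FPKM (limma adjusted p = 0.164). ADAM8, a sheddase of leukocytes and tumour cells, was at 0.732 and 0.697 FPKM in the knockdown libraries and 0.355 and 0.348 FPKM in the controls. MMP23B was at 0.808 and 1.07 FPKM in the knockdown libraries and 0.233 and 0.277 FPKM in the controls, and has a near-identical copy in MMP23A, so its value is uncertain. ADAM8 and MMP23B, named after their values were seen, passed when the filter was set to 0.1 FPKM (limma adjusted p = 0.0459 for ADAM8 and 0.0200 for MMP23B), a fit that called 23.7% of its 19259 features.

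The gelatinase MMP9 was lower in the knockdown libraries, at 0.110 and 0.0975 FPKM, than in the controls, at 0.304 and 0.278 FPKM. It did not pass at the filter of 0.1 FPKM (limma adjusted p = 0.112), and its mean corresponds to no more than about 28.8 fragments. ADAM21 was at 1.12 and 1.27 FPKM in the knockdown libraries and 0.749 and 0.757 FPKM in the controls, and MMP20, the enamel protease, at 0.222 and 0.292 against 0.0607 and 0.0416 FPKM. ADAM21 did not pass at that filter (limma adjusted p = 0.0636). MMP20 reached that filter only through the knockdown libraries, so no test of it is given. The rest of this range were ADAM28, ADAM32, ADAMTS6, ADAMTS15, ADAMTS16, MMP1, MMP19 and MMP23A, none above 0.435 FPKM in any library.

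**Figure D4:**
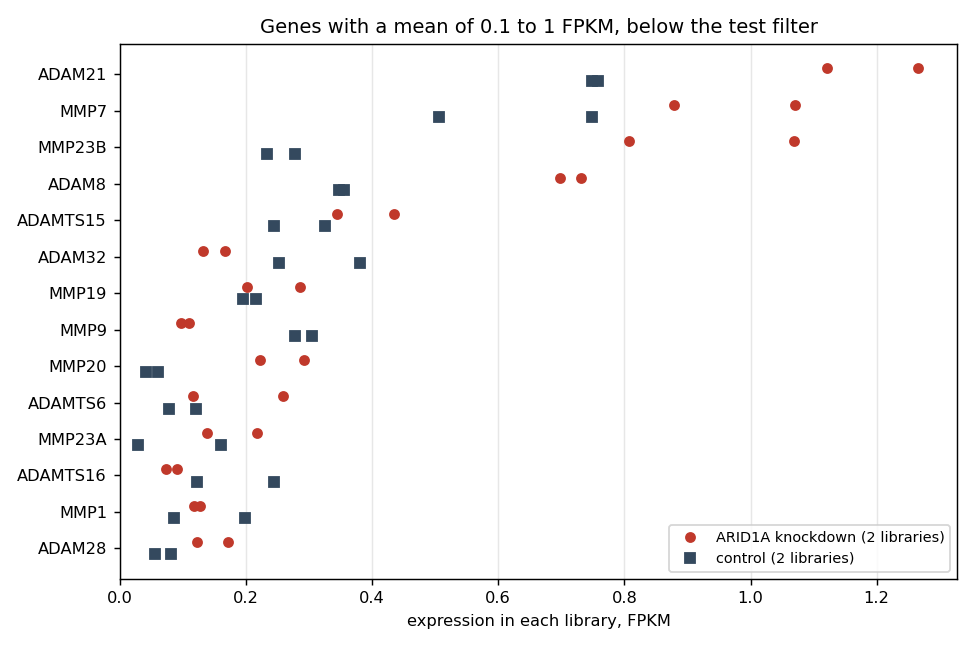
Expression of the 14 genes with a mean of 0.1 to 1 FPKM in each library, in FPKM on a linear axis, with knockdown libraries as circles and control libraries as squares. MMP23B and ADAM8 lie higher in both knockdown libraries, and MMP9 lower.

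A further 20 genes had a mean above 0 and under 0.1 FPKM, with no library above 0.120 FPKM. They were ADAM5, ADAM20, ADAM23, ADAM29, ADAM33, ADAMTS1, ADAMTS4, ADAMTS8, ADAMTS9, ADAMTS12, ADAMTS18, ADAMTS20, MMP2, MMP8, MMP10, MMP13, MMP16, MMP21, MMP24 and TIMP4. The other 13 were listed at 0 in all 4 libraries, namely ADAM2, ADAM6, ADAM7, ADAM12, ADAM18, ADAM30, ADAMTS3, ADAMTS5, ADAMTS19, MMP3, MMP12, MMP26 and MMP27. ADAM5, ADAM6 and MMP23A are pseudogenes in GENCODE release 29. MMP2, which MMP14 and TIMP2 activate together, was at 0.0287 and 0.0293 FPKM in the knockdown libraries and 0.0245 and 0.00472 FPKM in the controls. The MMP cluster on chromosome 11 (102520508 to 102955732) holds the secreted collagenases, MMP7 and the stromelysins MMP3 and MMP10, but not the stromelysin MMP11. The 9 MMP genes of the cluster were also low or at 0. Of them, 3 had a mean of at least 0.1 FPKM, 3 were listed at 0, and the highest mean, that of MMP7, was 0.801 FPKM.

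Genes that mature, guide or regulate these proteases, or that they act on, were read as lists, beside the 37.1% of all tested features called (18.2% higher, 18.9% lower) and the median log2 change of -0.0030 over them. Of 16 proprotein convertases and partners of ADAM10 and ADAM17, 14 were tested, of which 4 rose, 3 fell and 7 did not pass, with a median log2 change of -0.03. No list was tested as a whole. TSPAN5, a tetraspanin that escorts ADAM10 to the cell surface, fell to 19.7 and 20.5 FPKM in the knockdown libraries, against 41.1 and 40.4 FPKM in the controls. The convertase PCSK6 was at 4.12 and 3.37 FPKM in the knockdown libraries and 7.73 and 8.21 FPKM in the controls, and PCSK7 at 12.4 and 12.1 against 6.39 and 6.17 FPKM (limma adjusted p = 0.00388 and 0.00112, and 4.89e-04 for TSPAN5). Of 14 other inhibitors, inducers and clearance receptors, 7 were tested and 1 was called, LCN2, a lipocalin that binds MMP9. LCN2 was at 0.424 and 0.794 FPKM in the knockdown libraries and 3.35 and 2.84 FPKM in the controls. It passed the filter of 1 FPKM only through the controls, so its call carries no weight for the list.

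Of 7 ADAMTS-like genes, which encode related matrix proteins without a protease domain, 3 were tested and 1 rose, THSD4 (5.92 and 5.63 FPKM in the knockdown libraries, 4.04 and 4.19 FPKM in the controls, limma adjusted p = 0.0119). Of 6 astacin metalloproteases, 1 was tested and fell, the procollagen C-proteinase gene BMP1 (24.96 and 23.4 FPKM in the knockdown libraries, 30.1 and 27.3 FPKM in the controls, limma adjusted p = 0.0456). The call of BMP1 was lost without any single library (adjusted p 0.0637 to 0.168), with a filter of 0.1 FPKM (0.0645), with no filter (0.137) and with no variance trend (0.0727). That of THSD4 was lost with no filter (0.0506) and without knockdown replicate 1 (0.0594), control replicate 1 (0.0633) or control replicate 2 (0.0542).

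Of 32 genes for membrane proteins that ADAMs shed, 26 were tested, of which 12 fell, 4 rose and 10 did not pass, where 18.9% of all tested features fell and 18.2% rose. Their median log2 change was -0.17, beside -0.0030 over all features. JAG1, a Notch ligand, was at 6.80 and 6.54 FPKM in the knockdown libraries and 22.7 and 21.3 FPKM in the controls, a log2 change of -1.58 (limma adjusted p = 3.63e-04). The receptor tyrosine kinase gene MET was at 31.0 and 29.3 FPKM in the knockdown libraries and 84.2 and 78.7 FPKM in the controls (limma adjusted p = 3.85e-04). MICB, a stress-induced ligand of NK cells, was at 6.68 and 6.52 FPKM in the knockdown libraries and 13.6 and 12.9 FPKM in the controls (limma adjusted p = 0.00108).

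Of 30 matrix proteins that these enzymes cut, 10 were tested, of which 4 rose, 2 fell and 4 did not pass, where 37.1% of all tested features were called. Their median log2 change was 0.30, beside -0.0030 over all features. COL17A1, a hemidesmosome collagen that ADAMs shed, was at 7.09 and 6.81 FPKM in the knockdown libraries and 1.36 and 1.41 FPKM in the controls (limma adjusted p = 4.78e-04). It was counted in this list only and not among the shed membrane proteins, though it would belong to both. The laminin chain gene LAMB3 rose to 18.3 and 19.4 FPKM in the knockdown libraries, against 12.1 and 12.5 FPKM in the controls (limma adjusted p = 0.00269). FBLN1, a fibulin, was at 9.68 and 11.4 FPKM in the knockdown libraries and 16.6 and 15.1 FPKM in the controls (limma adjusted p = 0.0131; 0.0723 without control replicate 1 and 0.0692 with no filter).

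All 15 listed transcription factors known to act on MMP promoters were tested, of which 4 rose, 6 fell and 5 did not pass, where 18.2% of all tested features rose and 18.9% fell. Their median log2 change was 0.051, beside -0.0030 over all features. The AP-1 subunit gene JUN fell to 8.99 and 9.41 FPKM in the knockdown libraries, against 21.4 and 20.9 FPKM in the controls, while the AP-1 subunit gene FOSL2 rose to 24.9 and 24.6 FPKM, against 12.7 and 12.6 FPKM in the controls. The ETS factor gene ETV5 was at 21.3 and 21.8 FPKM in the knockdown libraries and 40.9 and 39.3 FPKM in the controls (limma adjusted p = 6.60e-04, and 5.00e-04 and 5.44e-04 for JUN and FOSL2).

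**Figure D5:**
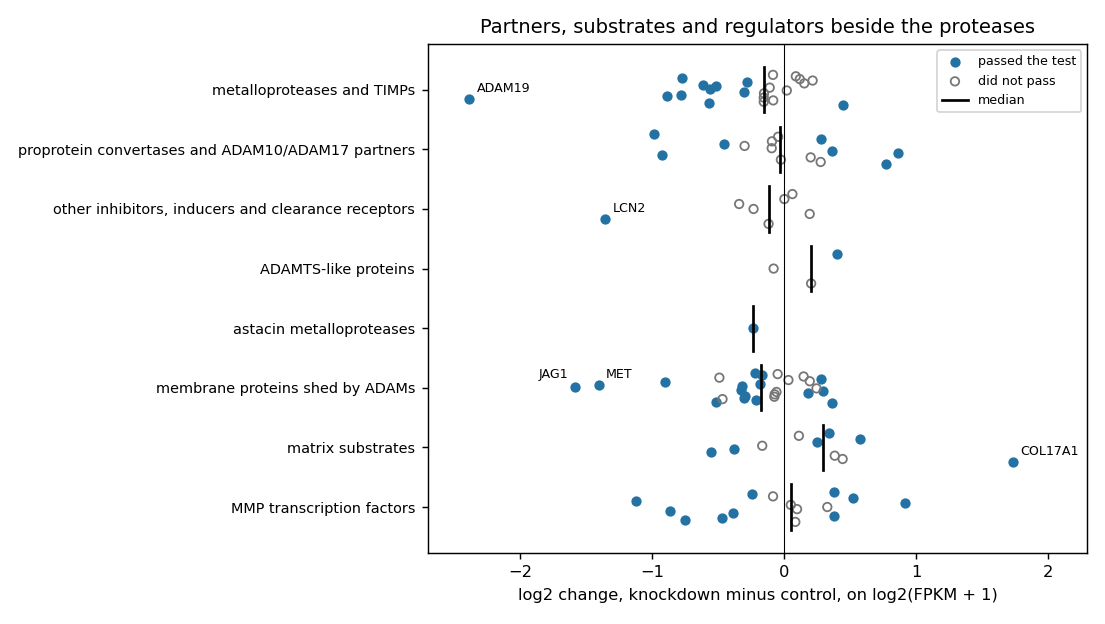
Log2 change, knockdown minus control, of the tested genes of each list, on the log2(FPKM + 1) scale, with filled points for genes past the adjusted p of 0.05, open points for the others and a bar at the list's median. The median was -0.15 for the metalloproteases and TIMPs, -0.17 for the shed membrane proteins and 0.30 for the matrix substrates; genes that moved by more than 1.2 are named.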

How the data were processed

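Total RNA of 2 ARID1A knockdown and 2 control HCT116 libraries was made into libraries with NEBNext Ultra reagents (labels' protocols). For each library the authors deposited FPKM values by symbol and locus, per the file headers. STAR, Cufflinks and GRCh38 are named in the submitters' processing notes. Not given in the sources used here are their versions, the annotation release, the strand setting and any filter.

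The tables of 60811 rows were joined by symbol and locus, since their row order differs. Chromosome Y copies of 45 pseudoautosomal genes were left out and 2347 values under 1e-9 set to 0. Starts were raised by 1. No member symbol was repeated. Gene types, strands and transcript lengths came from GENCODE release 29, start regions from RefSeq (GRCh38.p14). Fragment totals were estimated from low FPKM values of 3515 genes whose single annotated transcript spans 1500 bases or more, with 280 bases taken off each length. Of their values up to 8 fragments, 82.7% to 85.5% were whole within 0.1 fragment, and 17.4% to 21.7% after scrambling. A member's approximate fragments use its longest transcript and are upper estimates.

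FPKM values are not counts, so features with a mean of at least 1 FPKM were tested with limma 3.58.1 in R 4.3.3 (trend) on log2(FPKM + 1), knockdown minus control. This scale understates the change of low genes. On simulated data with 200 of 13605 genes changed, in 5 runs, 18.8% of log2 changes of 0.5, 62.8% of 1 and 86.8% of 2 were recovered, and 6.78% of calls were false. That is a far smaller share than the 37.1% of features called in the data, so these rates do not carry over to this fit. Replicates differed beyond counting noise (chi-square per degree of freedom 3.36 in the knockdown, 3.83 in the controls). Values in each library are given for every called member, for tested members not called with a mean of at least 10 FPKM, for the TIMPs, and for ADAM10, ADAM17, ADAM19, MMP14 and ARID1A. Up to 3 called genes of each list are named by the size of their change. Further genes were chosen after their values were seen. The members and lists were chosen with earlier results of these data known. Alternatives in pseudocount, filter, scaling, variance model, replicate block and library are given under the closing section.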

Additional observations from a re-analysis of the deposited data

How the results depend on the processing

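ADAM19, ARID1A and 13 of the other 21 tested members kept their direction and side of the threshold in every alternative that gave them a value. There were 15 such alternatives, and 14 for ADAM22, MMP25, MMP28 and TIMP3, which a filter of 5 FPKM removed. The number of changed features (5046) was 2786 with no filter, and 2146 to 3368 with any 1 library left out. The number of changed members (11) was 6 to 8 with any 1 library left out. The number of changed ADAMTS genes (3) was 0 with no filter, 1 with a filter of 5 FPKM (where 2 were tested), and 0 to 1 with any 1 library left out. The fit with no filter, which tested 29031 features, also ended the calls of MMP17, ADAM11, ADAMTS2, ADAMTS10 and ADAMTS14 (limma adjusted p = 0.0815, 0.0967, 0.0682, 0.0673 and 0.0904). ADAM15 passed, lower in the knockdown, under TPM scaling and quantile normalization (limma adjusted p = 0.0253 and 0.0268). Of the genes that did not pass, ADAMTS13 ranged from -0.33 to 0.023 with 1 library left out and was above 0 without control replicate 2. ADAMTS17 ranged from -0.073 (without control replicate 1) to 0.12, with -0.029 without knockdown replicate 2. The cause of these shifts was not tested.

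Replicate numbers gave no sign of pairing: deviations from the group means of same-numbered libraries correlated at -0.0099. This value cannot show whether same-numbered libraries were prepared together. With a replicate block, 4126 features and 11 members were called, and ADAM19 had a limma adjusted p of 0.00185. The ratio of summed FPKM, knockdown over control, was 0.869 for ADAM, 0.771 for ADAMTS, 0.859 for MMP and 0.634 for TIMP genes; under scalings and left-out libraries, added after seeing the data, it ranged from 0.853 to 0.886, 0.735 to 0.807, 0.843 to 0.871 and 0.622 to 0.644. With 2 libraries a group and 200 of 13605 genes changed, 18.8% of simulated log2 changes of 0.5 and 0.0% of those of 0.25 were recovered. In the data 37.1% of tested features were called, which makes the adjusted threshold easier to pass than in the simulation. These rates therefore do not describe this fit, in which MMP17 was called at a log2 change of -0.28. Small changes may still be missed.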

Other observations

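Transcripts that overlap members were listed with values of their own. AC022966.2, a feature of 367 bases inside TIMP2, was at 1.57 and 0.492 FPKM in the knockdown libraries and 16.7 and 10.9 FPKM in the controls, while TIMP2 itself did not pass. MMP25-AS1 was at 1.74 and 1.12 FPKM in the knockdown libraries and 3.14 and 3.23 FPKM in the controls. AC018904.1, antisense to the end of ADAM10, was at 2.36 and 2.38 FPKM in the knockdown libraries and 0.9999 and 0.482 FPKM in the controls. AC022966.2 and MMP25-AS1 passed the test (limma adjusted p = 0.00431 and 0.0161). AC018904.1 passed the filter of 1 FPKM only through the knockdown libraries, so no test of it is given. All 3 were chosen after their values were seen.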
